A study of Homo sapiens with 12 samples.

Results

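The insulin-like growth factor (IGF) binding proteins, IGFBP1 to IGFBP7, and the receptor IGF1R were followed across 2 cancer cell lines treated with inhibitors of the co-activators CBP and p300. Members were chosen by gene name, and 8 of the 34687 rows of the expression table carry these names, 1 row for each of the 7 binding proteins and 1 for the receptor. The set was chosen knowing that IGFBP4 was much lower with C646 in PANC1 cells, so those IGFBP4 values are given as a description and support nothing else. HCT116 is a human colon cancer line and PANC1 is a human pancreatic adenocarcinoma line. Each line was treated with 0.05% DMSO, the solvent that served as control, with ICG-001 at 10 uM, which is known for blocking the contact between CBP and β-catenin, or C646 at 10 uM, which is known for inhibiting the acetyltransferase activity of CBP and p300. Cells were collected after 12 or 96 h, and by the study's methods the 96 h cultures were started sparser and passaged, so time and culture density cannot be told apart. All cells grew in medium with serum, which itself carries IGFs and their binding proteins. Messenger RNA was read on Illumina HumanHT-12 arrays as signal intensity, the brightness of labelled RNA bound to the probes. Each of the 12 groups (cell line, treatment and time) has 1 column of values, 11 of them the authors' mean of 2 arrays and 1, PANC1 with ICG-001 at 12 h, of 3 arrays. With 1 column per group there is no replicate check and no test, and every difference below is a size measured between 2 columns.

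IGF1 and IGF2 are secreted growth factors that act through IGF1R, a receptor tyrosine kinase that signals through insulin receptor substrates to the PI3K-AKT and ERK pathways. The IGF binding proteins are secreted carriers that hold IGFs outside the cell. They can keep the ligand from the receptor, extend its life in the circulation or release it near cells when they are cut by proteases such as PAPPA. IGFBP7 is a more distant relative that binds IGFs weakly. Some family members also act on cells without binding an IGF.

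Detection differed between members and between the lines. The detection limit of a column was set from its own background distribution and lay between 143.7 and 144.3 in HCT116 and between 135.1 and 138.0 in PANC1, with 44.4% to 47.5% of rows above it. In HCT116, 2 of the 8 members were above the limit in all 6 columns (IGFBP2 and IGFBP6), 3 were above it in some (IGFBP3, IGFBP5 and IGFBP7) and 3 in none (IGFBP1, IGFBP4 and IGF1R). In PANC1, 5 members were above it in all 6 columns (IGFBP2, IGFBP3, IGFBP4, IGFBP6 and IGFBP7), 2 in some (IGFBP1 and IGF1R) and 1 in none (IGFBP5). A member at or under the limit has no measured level, and its RNA may still be present below what the arrays resolve. Marker genes of the labelled cell types were read as well, and 6 of 6 epithelial marker rows were above the limit in every column of both lines, 1 of 6 colorectal marker rows was so in HCT116 (CDX2) and the pancreatic ductal markers KRT7 and SOX9 were so in PANC1. CDX1, VIL1, LGALS4 and CDH17 were under it in all HCT116 columns. CDX2 and SOX9 were above the limit throughout in both lines and so do not tell the lines apart. Of the markers of other cell types, no acinar, endocrine or blood row was above the limit in every column of either line. Of the 2 liver rows, APOA2 was under it throughout, while ALB was dim but above it in every column (148.2 to 169.6 in HCT116 and 152.6 to 168.7 in PANC1).

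**Figure D1:**
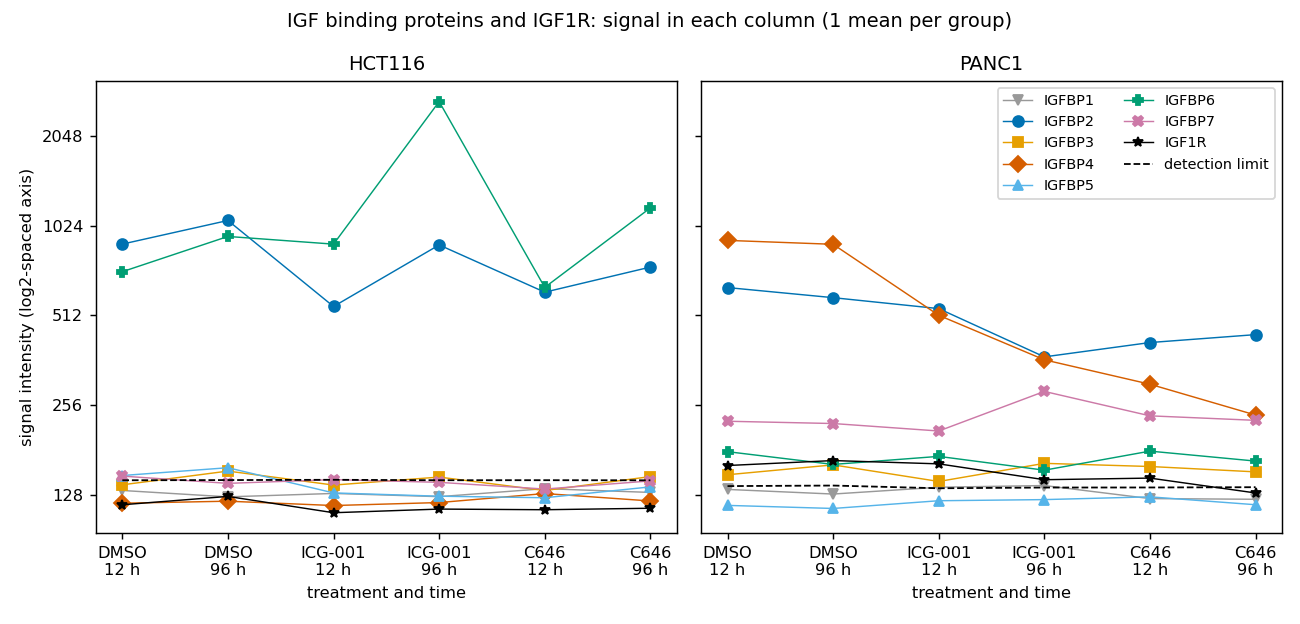
Signal intensity (axis spaced by log2) of the 8 members in each of the 6 columns of HCT116 (left) and PANC1 (right), with 1 authors' mean per point, lines drawn only to join the points of a gene, and the detection limit dashed. IGFBP2 lay well above the limit in both lines, IGFBP6 in HCT116 and IGFBP4 in PANC1, while most other members lay near or under it.

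The members whose signal moved most were IGFBP4 in PANC1, with a range of 1.94 on the log2 scale over its 6 columns, and IGFBP6 in HCT116, with a range of 2.07. No other member reached a range of 1 in either line. Their promoters are shown because these 2 genes carry the largest responses and the drugs act on co-activators that work at promoters. Each sequence runs from 250 bases before to 50 bases after the RefSeq start (GRCh38.p14), 5′ to 3′ along the gene. Capitals mark matches to GGGCGG (the GC box; CCGCCC where the match is on the opposite strand) or to TATAAA (the TATA box).

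IGFBP4 (chr17:40443200-40443499, plus strand): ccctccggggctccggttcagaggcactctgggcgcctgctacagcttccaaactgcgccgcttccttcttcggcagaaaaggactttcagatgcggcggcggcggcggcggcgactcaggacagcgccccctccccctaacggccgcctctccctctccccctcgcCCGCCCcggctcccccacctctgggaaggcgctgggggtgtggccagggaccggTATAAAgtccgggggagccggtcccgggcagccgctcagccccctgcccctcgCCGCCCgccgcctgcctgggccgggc

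IGFBP6 (chr12:53097417-53097716, plus strand): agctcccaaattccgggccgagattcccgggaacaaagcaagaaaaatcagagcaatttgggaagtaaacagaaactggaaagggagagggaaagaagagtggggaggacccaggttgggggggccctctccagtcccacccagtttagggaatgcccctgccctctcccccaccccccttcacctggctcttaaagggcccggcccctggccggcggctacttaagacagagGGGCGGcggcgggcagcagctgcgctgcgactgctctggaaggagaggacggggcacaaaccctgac

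The IGFBP4 window has 74.0% G and C and holds TATAAA at positions -29 to -24 from the start, with GC boxes on the opposite strand at -83 to -78 and at 25 to 30. The IGFBP6 window has 61.7% G and C and holds 1 GC box at -17 to -12 and no TATAAA. The median window of all 35116 RefSeq promoters has 58.7% G and C. Of all promoters searched on both strands, 45.0% hold GGGCGG and 11.5% hold TATAAA. Neither printed window holds CTTTGAT (a TCF/LEF motif, in 2.62% of promoters), TGACTCA (an AP-1 motif, in 4.95%) or CACGTG (an E-box, in 7.26%), and the 5 motifs do not overlap in these windows. Of the 8 members, 6 had a promoter in the table (not IGFBP1 and IGFBP7). GC boxes also lay in windows of IGFBP2, IGFBP3 and IGF1R, but not of IGFBP5, so they are not particular to the 2 printed genes. These matches describe letters in the windows and say nothing of which factors bind.

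IGFBP4 codes for a carrier that is known mainly for keeping IGFs from their receptor. Its signal in PANC1 was 913 in DMSO at 12 h and 886 in DMSO at 96 h. With ICG-001 it was 513 at 12 h and 364 at 96 h. With C646 it was 301 at 12 h and 238 at 96 h. The 4 treated columns were all below the 2 control columns, both C646 columns were below both ICG-001 columns, and with each drug the 96 h column was below the 12 h column. Every column stayed above the detection limit. The arrays read RNA of whole cultures, so fewer cells with the RNA and less RNA per cell cannot be told apart.

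Against DMSO of the same time, IGFBP4 in PANC1 was 1.78-fold lower with ICG-001 at 12 h and 2.44-fold lower at 96 h (log2 ratios of -0.83 and -1.28). With C646 it was 3.03-fold lower at 12 h and 3.73-fold lower at 96 h (log2 ratios of -1.60 and -1.90). A row counted as tested if either of the columns compared exceeded its limit, and ranks are among those rows. From the lowest ratio up, IGFBP4 ranked 5 of 17222 with ICG-001 at 12 h and 39 of 17254 at 96 h. It ranked 2 of 17430 with C646 at 12 h and 2 of 17033 at 96 h, the difference that the choice of the set rested on. The drugs share their DMSO columns, so the ICG-001 and C646 ratios are not independent. The DMSO columns themselves differed little, by a log2 ratio of -0.04 for 96 h over 12 h. The drugs can also be set against each other at the matched dose of 10 uM without the controls, and IGFBP4 was 1.70-fold higher with ICG-001 than with C646 at 12 h and 1.53-fold higher at 96 h, a description only, since the C646 columns enter the choice. In HCT116, IGFBP4 signals of 118.3 to 129.8 were under the limit in all 6 columns, so its response there could not be read.

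IGFBP6 codes for a carrier that prefers IGF2 over IGF1. In HCT116 its signal was 717 in DMSO at 12 h and 941 at 96 h. With ICG-001 it was 887 at 12 h and 2662 at 96 h. With C646 it was 636 at 12 h and 1173 at 96 h. The ICG-001 column at 96 h stood above the other 5 columns, and within each treatment the 96 h column was the higher one.

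At 96 h IGFBP6 in HCT116 rose 2.83-fold with ICG-001 over DMSO, which ranked 59 of 16927 from the highest ratio down. The other 3 HCT116 comparisons with DMSO stayed under 1.5-fold, with log2 ratios of 0.31 for ICG-001 at 12 h, -0.17 for C646 at 12 h and 0.32 for C646 at 96 h. The DMSO columns differed by a log2 ratio of 0.39 for 96 h over 12 h, more than any of those 3. ICG-001 over C646 gave a log2 ratio of 0.48 at 12 h and 1.18 (2.27-fold) at 96 h. In PANC1, where IGFBP6 was above the limit but dim, its signal was 179 and 162 in DMSO at 12 and 96 h, 173 and 155 under ICG-001, and 179.9 and 167 under C646. Its 4 PANC1 ratios to DMSO lay between -0.06 and 0.04 on the log2 scale.

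IGFBP2 codes for a carrier made by many tumour and embryonic cells. In HCT116 its signal was 888 and 1065 in DMSO at 12 and 96 h, 549 and 882 under ICG-001, and 613 and 744 under C646. In PANC1 it was 635 and 587 in DMSO, 539.8 and 372 under ICG-001, and 416 and 442 under C646. The 4 treated columns of each line were all below both DMSO columns of that line, the closest being HCT116 with ICG-001 at 96 h (882) beside DMSO at 12 h (888).

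IGFBP2 was thus below its control of the same time in 8 of 8 comparisons, and passed 1.5-fold in 3 of them. In each single comparison, 49.1% to 52.9% of all rows tested lay below 0. The shares of rows below 0 in all 8, or past 1.5-fold in 3 of 8, were not counted. How rare the IGFBP2 pattern is therefore cannot be read. The drugs share the DMSO columns, so the 8 ratios are not independent. It was 1.62-fold lower with ICG-001 in HCT116 at 12 h, 1.58-fold lower with ICG-001 in PANC1 at 96 h and 1.53-fold lower in PANC1 treated with C646 for 12 h. The log2 ratios that stayed under 1.5-fold were -0.27 for ICG-001 at 96 h, -0.53 for C646 at 12 h and -0.52 for C646 at 96 h in HCT116, and -0.23 for ICG-001 at 12 h and -0.41 for C646 at 96 h in PANC1. The size of a fold read differently against the spread of all rows in the same comparison. Both C646 ratios in HCT116 and the one at 12 h in PANC1 lay below the middle 95% of all rows tested, whereas the ICG-001 ratios past 1.5-fold lay just inside it, the spread of all rows being wider there. ICG-001 and C646 differed by less than 1.5-fold for IGFBP2 in both lines and at both times, with log2 ratios of ICG-001 over C646 between -0.25 and 0.38. Against DMSO of the other time, the C646 12 h column of PANC1 was 1.41-fold lower, under the threshold, and the C646 12 h column of HCT116 was 1.74-fold lower, past it.

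**Figure D2:**
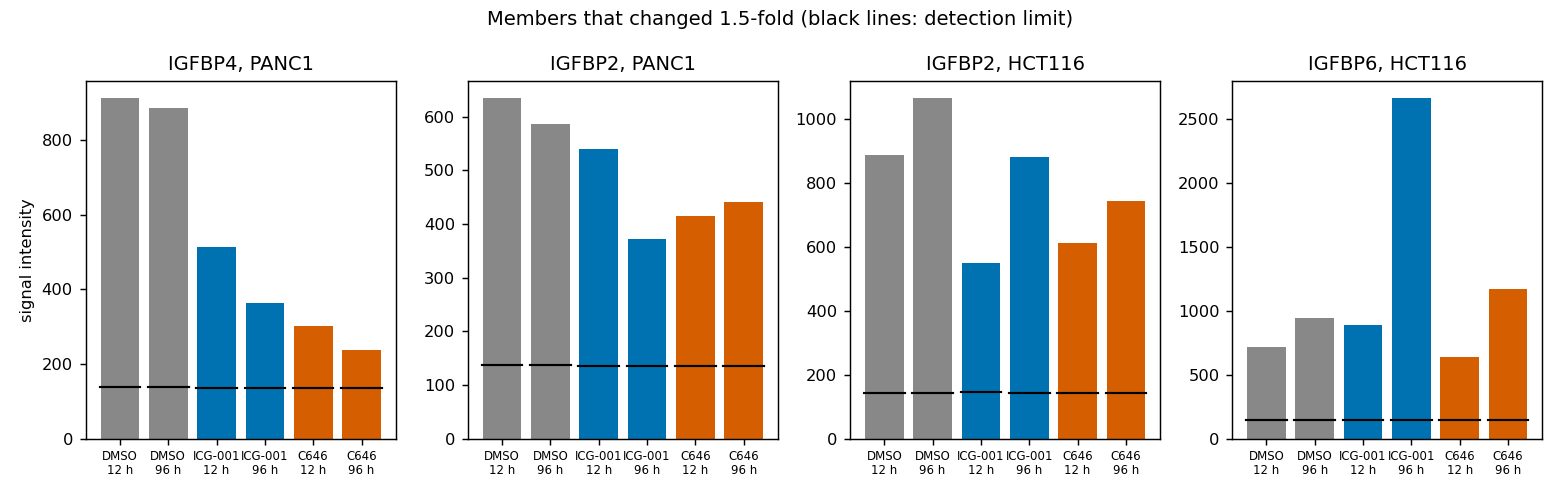
Signal intensity, from 0, of IGFBP4 in PANC1, IGFBP2 in PANC1 and HCT116, and IGFBP6 in HCT116, with 1 bar for the authors' mean of each group (grey for DMSO, blue for ICG-001, orange for C646), no error bars because each group has 1 column, and a black line at the detection limit. IGFBP4 was lowest with C646 at 96 h (238), IGFBP2 was below its controls in every treated column, and IGFBP6 was highest with ICG-001 at 96 h (2662).

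Counted at 1.5-fold over the 8 comparisons of a drug with DMSO, 3 of the 8 members changed in at least 1 of them (IGFBP2, IGFBP4 and IGFBP6), beside 19% of all rows tested in any of them. Members above the limit gave 42 ratios, of which 8 passed the threshold, 7 lower and 1 higher, beside 5.93% of the ratios of all rows. Both tallies include IGFBP4 with C646 in PANC1, on which the set was chosen. Without those 2 ratios, 6 of 40 passed, 5 lower and 1 higher. These still include IGFBP4 with ICG-001 in PANC1 at 12 and 96 h, which rests on the same DMSO columns as the choice. The counts are read beside the share of all rows that passed in the same comparison. In HCT116, IGFBP2 was the 1 of 4 members that passed with ICG-001 at 12 h, lower, as did 4.19% of all rows in that direction. At 96 h IGFBP6 was the 1 of 4 that passed, higher, beside 5.19% of all rows. With C646 in HCT116, 0 of 4 members passed at 12 h, beside 4.16% of all rows in either direction, and 0 of 4 at 96 h, beside 3.15%. In PANC1 with ICG-001, 1 of 7 was lower at 12 h (IGFBP4), beside 0.337% of all rows, and 2 of 7 were lower at 96 h (IGFBP2 and IGFBP4), beside 3.58%. For C646 in PANC1, 2 of 6 were lower at 12 h (IGFBP2 and IGFBP4), beside 2.71%, and 1 of 6 at 96 h (IGFBP4), beside 1.19%. IGFBP4 with C646 in PANC1 was what the choice rested on, and its ICG-001 ratios there share the DMSO columns. Nothing is therefore read from the PANC1 counts.

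The members' median log2 ratio lay below 0 in all 8 of these comparisons, between -0.22 and -0.06, while the median over all rows tested lay between -0.01 and 0.01. Both medians for C646 in PANC1 include IGFBP4, on which the set was chosen. Without IGFBP4 the middle ratio there at 12 h was that of IGFBP6, at 0.006. Nothing is therefore read from the agreement of the 8 medians. Medians over 4 to 7 genes, most of them near the limit, describe these columns only. Between the drugs, 0 of 3 members differed by 1.5-fold in HCT116 at 12 h, beside 6.32% of all rows, and 1 of 3 was higher with ICG-001 at 96 h (IGFBP6), beside 3.25%. In PANC1 IGFBP4 was the 1 of 7 higher with ICG-001 at both times, beside 1.58% of all rows at 12 h and 3.34% at 96 h. Its C646 columns there are the ones the choice used, so nothing is read from these counts either. Between the DMSO columns of 96 and 12 h, 0 of 5 members passed in HCT116 and 0 of 6 in PANC1, beside 3.14% and 1.31% of all rows.

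**Figure D3:**
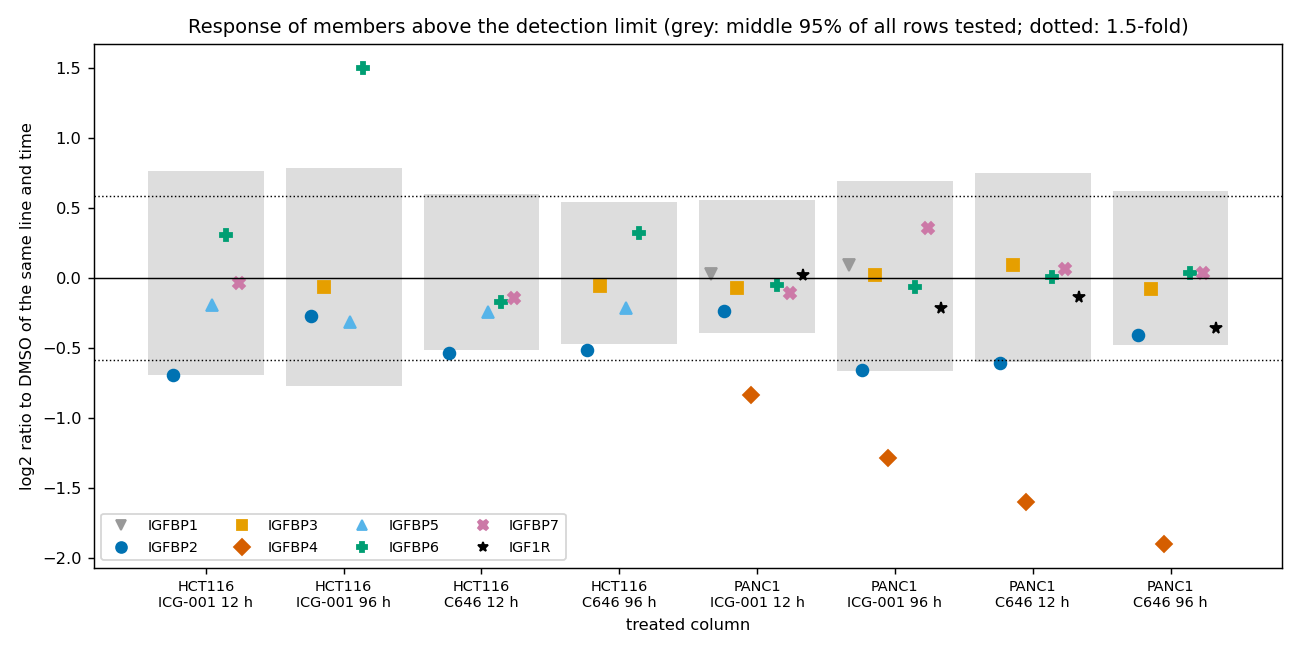
Log2 ratio of each treated column to DMSO of the same line and time for the members whose signal exceeded the detection limit in either column, with the middle 95% of all rows tested in grey and 1.5-fold as dotted lines. IGFBP4 lay below the grey band in all 4 PANC1 comparisons and IGFBP6 above it with ICG-001 in HCT116 at 96 h (2.83-fold), while the other ratios lay within or close to the band.

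IGFBP7, the low-affinity relative, was above the limit in every PANC1 column. Its signal was 227 and 223 in DMSO at 12 and 96 h, 210.1 and 285 under ICG-001, and 236 and 228 under C646. The ICG-001 column at 96 h was the highest of the 6, 1.28-fold over its control, which is under the threshold. In HCT116 IGFBP7 signals of 134.3 to 148.4 lay on both sides of the limit.

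IGFBP3, the main carrier of IGFs in blood, was dim in both lines. In PANC1 it was above the limit in all columns, with signals from 142.4 to 163.8 and a median of 156.6. In HCT116 it was above the limit in 3 of 6 columns, all of them at 96 h, with signals of 154.3 in DMSO, 147.3 with ICG-001 and 147.9 with C646. Where it was above the limit, its log2 ratios to DMSO lay between -0.08 and 0.09. IGFBP5, a carrier that binds the extracellular matrix, was above the limit in HCT116 only in the DMSO columns (149.1 at 12 h and 158.3 at 96 h). Its 4 treated HCT116 columns, from 125.6 to 136.6, were under the limit, which bounds the difference at no less than 1.03-fold to 1.10-fold. In PANC1 IGFBP5 was under the limit throughout (115.7 to 126.5). IGFBP1, known as a liver product under insulin control, was under the limit in all HCT116 columns (126.5 to 134.7) and reached it in PANC1 only with ICG-001, at 136.2 and 138.0. The limits of those 2 columns, 135.1 and 135.9, were lower than those of the DMSO columns, 137.4 and 138.0. Its log2 ratios to DMSO there were only 0.02 and 0.09.

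The array background was left in the signals, so the ratios of these dim members understate any change. With the background removed by normexp, IGFBP5 was lower by more than 1.5-fold in all 4 HCT116 comparisons (1.53-fold to 1.98-fold), with every treated column under the limit before that correction. IGFBP5 was read there only through its DMSO columns, which the drugs share, so a lower ratio was largely built in. Over all rows, normexp raised the number past 1.5-fold from between 526 and 1752 to between 1501 and 3770 in these comparisons. The spread of log2 ratios among rows that never exceeded the limit in a line was between 0.06 and 0.07 (SD), so ratios of that size cannot be told from background.

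IGF1R, the receptor, was under the limit in all HCT116 columns (111.9 to 126.9). In PANC1 its signal was 161 and 167 in DMSO at 12 and 96 h, 163 and 144 under ICG-001, and 146 and 130.3 under C646. The 96 h columns of both drugs and the 12 h column of C646 were below both controls, and only the C646 column at 96 h was under the limit. That column was at least 1.23-fold below its control, with a measured log2 ratio of -0.36 that ranked 983 of 17033 from the lowest. The ratio at 96 h with ICG-001 was -0.21. No IGF1R ratio passed 1.5-fold.

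In the genome, IGFBP1 and IGFBP3 are adjacent protein-coding genes on chromosome 7, as are IGFBP2 and IGFBP5 on chromosome 2. Within the second pair, IGFBP2 was above the limit in all 12 columns and IGFBP5 in 2 of them. IGFBP4 lies on chromosome 17 between TOP2A and TNS4, and IGFBP6 on chromosome 12 between SPRYD3 and SOAT2.

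The rows most like a member were taken by Pearson's r of log2 signal over the 6 columns of a line, among rows above the limit in all 6 and with a range of at least 1. In PANC1, with 920 rows ranked, the 5 rows most like IGFBP4 had r from 0.97 to 0.98. They were LOC100132425, C9orf167 (now TOR4A), PTMS (parathymosin), RPS6KA4 (a kinase) and LOC728572, which RefSeq names RPL32P11 and which may share signal with its parent gene. RPS6KA4 went from 2177 and 1694 in DMSO at 12 and 96 h to 1511 and 1175 under ICG-001 and to 929.7 and 815 under C646. C9orf167 went from 674 and 582 in DMSO to 519 and 376 under ICG-001 and to 328 and 297 under C646. In HCT116, with 1476 rows ranked, the 4 rows most like IGFBP6 were GLB1 (the lysosomal β-galactosidase), SLC39A11 (a zinc transporter), ITGB5 (an integrin) and ATP9A, with r from 0.99 to 0.998. GLB1 was 596 and 675 in DMSO, 658 and 1221 under ICG-001, and 559 and 749 under C646. Like IGFBP6, all 4 were highest in the ICG-001 column at 96 h. Without the 2 columns farthest from the member's median, r over the 4 left ran from 0.89 to 0.99 for IGFBP4 and from 0.89 to 1.00 for IGFBP6. The 6 columns of a line were normalized together and high r values are easy to reach among so many rows, so these are descriptions.

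Of the other genes of the IGF system, 64 were read, each with 1 row. The ligands IGF1 and IGF2 were under the limit in all 12 columns, and INS was above it in 1, HCT116 with C646 at 12 h, at 152.4 beside a limit near 144. IGF2R, the receptor that clears IGF2, was bright in both lines. In HCT116 it was 1032 and 1091 in DMSO at 12 and 96 h, 1379 and 1955 under ICG-001, and 1276 and 1261 under C646, and its rise with ICG-001 at 96 h (log2 ratio of 0.84) passed 1.5-fold. In PANC1 it was 3169 and 4139 in DMSO, 4169 and 4761 under ICG-001, and 3749 and 4461 under C646, with no ratio past the threshold. INSR, INSRR and IGFALS, the acid-labile partner of circulating IGF complexes, lay close to the limit on both sides of it or under it, between 117.2 and 155.1.

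STC2 codes for stanniocalcin 2, an inhibitor of the protease PAPPA that cuts IGFBP4. It was higher with ICG-001 at both times in both lines. In HCT116 its signal was 1109 and 1366 in DMSO at 12 and 96 h, 2619 and 4305 under ICG-001, and 1196 and 1216 under C646. In PANC1 it was 440.4 and 956 in DMSO, 1049.6 and 2265 under ICG-001, and 555 and 903 under C646. For ICG-001 over DMSO, HCT116 gave log2 ratios of 1.24 at 12 h and 1.66 at 96 h, and PANC1 gave 1.25 and 1.24. In PANC1 the DMSO columns differed by 1.12 on the same scale (96 h over 12 h), so the 12 h ICG-001 column was close to DMSO at 96 h.

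FOXO3, a transcription factor restrained by AKT, rose with ICG-001 in PANC1 from 493 to 751 at 12 h and from 511 to 944 at 96 h (log2 ratios of 0.61 and 0.89). IGF2BP3, which binds IGF2 messenger RNA and is not a carrier of the protein, fell with ICG-001 in HCT116 from 2579 to 1475 at 12 h and from 3243 to 1216 at 96 h (log2 ratios of -0.81 and -1.41). STC2, FOXO3 and IGF2BP3 were the only ones of the 64 to pass 1.5-fold in the same direction at both times with a drug in a line. The share of all rows that did so was not counted, so whether 3 of 64 is many or few cannot be read.

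Over the 64 genes, 4 of 45 above the limit passed in HCT116 with ICG-001 at 12 h (3 higher, 1 lower), beside 9.05% of all rows, and 3 of 43 at 96 h (2 higher, 1 lower), beside 10.4%. With C646, 0 of 45 did at 12 h, beside 4.16%, and 0 of 44 at 96 h, beside 3.15%. In PANC1 3 of 47 passed with ICG-001 at 12 h, all higher, beside 2.52% of all rows, and 6 of 49 at 96 h (5 higher, 1 lower), beside 7.44%. For C646 in PANC1, 1 of 46 passed at 12 h (CRIM1, higher), beside 6.72%, and 0 of 49 at 96 h, beside 4.02%. The median log2 ratio of the 64-gene list lay between -0.07 and 0.08 in the 8 comparisons. Genes that passed at 1 time only, named after their values were seen, included SOCS2 (0.73 with ICG-001 in PANC1 at 96 h), CCN2 (0.86) and KAZALD1 (0.83) in the same comparison, and DEPTOR (-0.64), also there. PAPPA itself lay near the limit in PANC1, between 131.7 and 159.3.

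**Figure D4:**
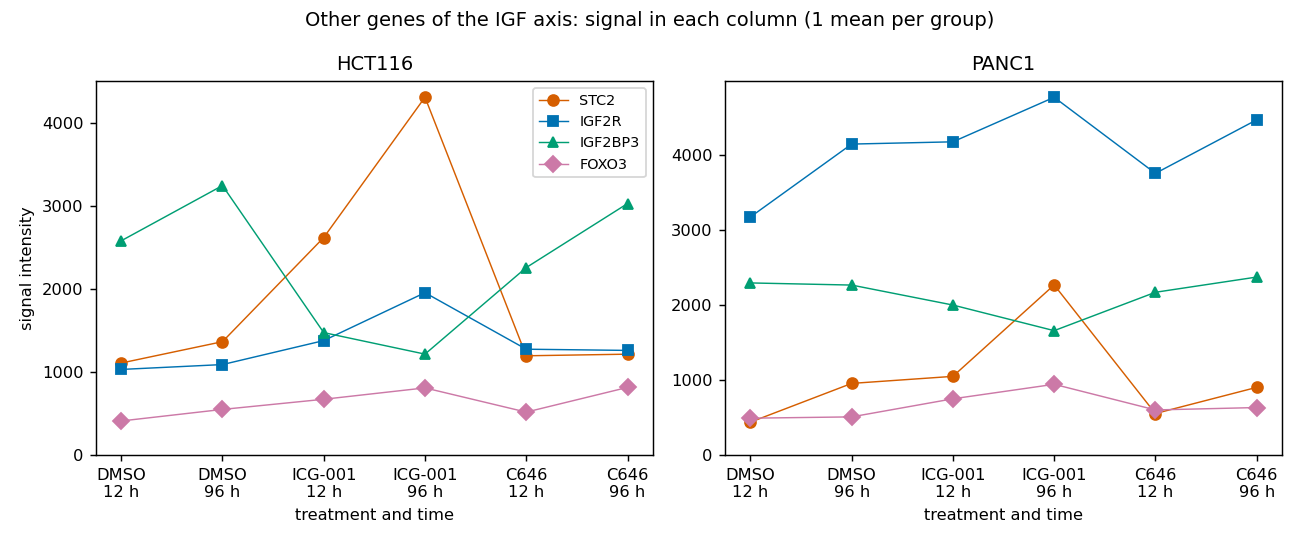
Signal intensity, from 0, of STC2, IGF2R, IGF2BP3 and FOXO3 in each of the 6 columns of HCT116 (left) and PANC1 (right), with 1 authors' mean per point and lines drawn only to join the points of a gene. STC2 was highest with ICG-001 at 96 h in both lines (4305 and 2265), where IGF2BP3 in HCT116 was lowest (1216).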

How the data were processed

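The deposited table gives linear signal intensity, 1 value for each gene name in each group. The authors quantile normalized the arrays in GenomeStudio, left the background in and averaged replicate arrays. Values of single arrays were not used here, and the number of arrays limits the precision. Sorted values differed more between the lines than within them (mean absolute difference of sorted log2 values of 0.063 to 0.066 between lines and at most 0.0093 within a line), so signals were compared only within a line, and no level was set against that of another gene.

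The 12 groups came from the sample labels. Log2 signals were subtracted in 14 comparisons of columns. Each column's limit of detection was the mode of its log2 signal density (Gaussian kernel, bandwidth 0.03) plus 2.33 SD, the 0.99 quantile of a normal distribution, with the SD from values below the mode. A row was read when either column exceeded its limit and counted as changed at 1.5-fold. The counting code was tested on simulated data, which gives no error rate for the calls. Named in the text were the members, all ligands and receptors, genes of the IGF lists changed at both times, and the 5 rows most like a member with a log2 range of at least 1. Some genes that these rules or the marker lists name are not reported here. The members, lists and rules were chosen with earlier results of these data known. The alternatives used 1.2 or 2 as fold threshold, no filter, a limit at 5 SD, normexp with an offset of 16, centred ratios, quantile normalization over all 12 columns and DMSO of the other time.

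RefSeq tables (GRCh38.p14) gave neighbours and promoters, and the array annotation's build is not given in the sources used here. Protein sequences were not analysed here. Scripts ran in Python 3.11.15 (pandas 2.3.3, numpy 2.4.6, scipy 1.17.1, matplotlib 3.10.9), and normexp came from limma 3.58.1 under R 4.3.3.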

Additional observations from a re-analysis of the deposited data

How the results depend on the processing

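No member's ratio reversed from a called change to the opposite direction under any alternative that was run. No filter on dim rows, a limit at 5 SD, centred ratios and quantile normalization over all 12 columns moved no count of changed members by over 1.5 times. At a fold threshold of 1.2, the members changed were 2 and 3 for ICG-001 in HCT116 (12 and 96 h), 1 and 2 for C646 in HCT116, 3 for C646 in PANC1 at 96 h, 1 for ICG-001 against C646 in HCT116 at 12 h, 2 and 2 for the same contrast in PANC1, and 1 for DMSO over time in HCT116. At a threshold of 2 they were 0 for ICG-001 in HCT116 at 12 h, 0 and 1 for ICG-001 in PANC1, 1 for C646 in PANC1 at 12 h, and 0 and 0 for ICG-001 against C646 in PANC1. With normexp background correction, 2 members changed in each HCT116 comparison with DMSO and 2 with C646 in PANC1 at 96 h. Against DMSO of the other time, 1 changed with C646 in HCT116 at 12 h (IGFBP2), 1 at 96 h (IGFBP6), and 1 with C646 in PANC1 at 12 h (IGFBP4 without IGFBP2). Shares of all rows passing at 1.2-fold, at 2-fold or against DMSO of the other time were not counted. Whether the member counts under those settings are many or few cannot be read.

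Background is left in the deposited signals, and removing it with normexp enlarged the IGFBP4 changes in PANC1 to 1.97-fold and 2.91-fold lower with ICG-001 and 3.90-fold and 5.45-fold lower with C646. All 73 ratios of members kept their sign with normexp and all 11 changes stayed past 1.5-fold, with 8 more passing. Among the 8 were IGFBP5 in the 4 HCT116 comparisons and IGF1R with C646 in PANC1 at 96 h (1.92-fold lower). The treated signals of both were under the detection limit. Both were read there only through their DMSO columns, so a lower ratio was largely built in. Against DMSO of the other time, 33 of 42 ratios kept their sign and 7 of 8 changes stayed past the threshold. Over all rows, normexp raised the number past 1.5-fold from between 217 and 1752 to between 875 and 3770 by comparison, and it moved the share of higher among them from 86.6% to 69.4% for ICG-001 in PANC1 at 12 h, from 70.3% to 58.6% for C646 in PANC1 at 96 h and from 74.7% to 57.5% for DMSO over time in PANC1. No paired analysis was possible because each group has 1 column and no test was run.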
